A study of Mus musculus with 16 samples.

Results

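The 7 genes described here, Foxa1, Foxa2, Foxa3, Hnf4a, Cebpa, Nr5a2 and Nr1h4, encode transcription factors of liver and endoderm, and were followed in a cell fraction of mouse hepatomas and in blood. They were chosen from their Cy5 signals and Cy5 over Cy3 ratios on these same arrays, so differences between groups in these values are a description: no p-value is given for them, and the calls below are counts only. They are 7 of 16535 genes named on the array, and all 7 were among the 12298 genes with a tested probe. They are read by 10 probes, namely 3 of Hnf4a, 2 of Cebpa and 1 of each other gene.

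The study profiled 8 tumour fractions enriched in infiltrating inflammatory cells and 8 blood samples on 16 Agilent arrays with 2 colours. All mice of both groups had received Hepa1-6 cells, a mouse hepatoma line, under the skin, and were sampled on day 10. The fraction came from mashed tumours by density gradient centrifugation and is called infiltrating cells below. Blood went straight into RNAlater, and RNA of the groups was extracted with different kits. The treatment text gives C57Bl/6 athymic mice, while the strain field gives C57Bl/6 with no allele. All were female. Sample RNA carried Cy5. The Cy3 channel of each of the 16 arrays held blood RNA from female C57Bl/6 mice without treatment, called untreated blood below. Dyes were not swapped, so dye and sample cannot be told apart in ratios to untreated blood. That blood counts as 1 control, so p-values against it carry no spread between untreated mice. Infiltrating cells filled slides 3 and 4 and blood slides 1 and 2, so slide, kit and group cannot be told apart. Both groups carry sample numbers 889, 890, 891, 893, 894, 896, 897 and 898, and the labels do not say that a number marks 1 mouse, so p-values measure the spread between these samples.

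The FOXA proteins are winged-helix factors that bind closed chromatin and open it in early endoderm and in hepatocytes. Hnf4a, a nuclear receptor, and Cebpa, a basic leucine zipper factor, keep hepatocyte genes active, and Cebpa also drives the granulocyte and monocyte lineages. Nr5a2 (LRH-1) and Nr1h4 (FXR, the bile acid receptor) control bile acid and sterol genes in liver.

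In RefSeq's annotation of GRCm38.p6, Foxa1 lies on chromosome 12 (57540628 to 57548029), Foxa2 on chromosome 2 (148042877 to 148046969) and Foxa3 on chromosome 7 (19013283 to 19023539). Hnf4a lies on chromosome 2 (163506811 to 163572907), Cebpa on chromosome 7 (35119293 to 35121928), Nr5a2 on chromosome 1 (136842562 to 136960448) and Nr1h4 on chromosome 10 (89454234 to 89533645). RefSeq's promoter table for that build held 11 windows of these 7 genes, each from 250 bases before to 50 bases after a transcript start. Matches on both strands are given for 5 motifs: TGTTTAC and TATTTAC (FOXA), CAAAGTCCA (HNF4), TTGCGCAA (C/EBP) and TCAAGGTCA (NR5A). Of these 5, only 1 motif was found, in 1 of the 11 windows. The FOXA motif TGTTTAC stood on the minus strand in the Foxa1 window, 1 of 11 member windows against 3.65% of 32851 mouse windows. The other 4 motifs were in none of the 11, against 3.04% (TATTTAC), 0.475% (CAAAGTCCA), 0.183% (TTGCGCAA) and 0.423% (TCAAGGTCA) of all windows. The Foxa1 window, which holds this match, is shown for the 250 bases before the start, 5′ to 3′, with the match in capitals; it is chr12:57546112-57546361 on the minus strand of GRCm38.p6.
Foxa1: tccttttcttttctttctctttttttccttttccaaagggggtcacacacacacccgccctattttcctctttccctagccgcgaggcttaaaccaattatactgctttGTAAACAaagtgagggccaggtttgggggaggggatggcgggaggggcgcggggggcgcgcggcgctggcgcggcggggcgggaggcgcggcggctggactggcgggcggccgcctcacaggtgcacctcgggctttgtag
The match describes letters only, and nothing about binding follows from it.

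The arrays of the groups differed in brightness. In Cy5, 51.1% to 65.8% of probes were well above background on arrays of infiltrating cells, against 24.8% to 36.3% on arrays of blood; in Cy3 the shares were 46.5% to 51.0% and 41.0% to 45.3%. The 75th percentile of Cy5 ran from 236 to 1129 units in infiltrating cells and from 17.0 to 37.4 in blood. Summed Cy5 of 6 tested hepatoma and hepatocyte markers, of 7 listed, was 162100 to 911900 units in infiltrating cells and 32.3 to 123 in blood. The 8 leukocyte markers summed to 21790 to 81460 and 4594 to 10760 units, and 5 fibroblast markers to 46730 to 230800 and 37.3 to 246. By log2 ratio to untreated blood, however, the leukocyte markers had a median of -0.85 in infiltrating cells and of -0.07 in blood. By the rule given below, 1 of them was called higher and 4 lower in infiltrating cells than in blood. The hepatoma marker Afp was well above background on all 16 arrays, and the marker Ttr on 1 infiltrating array and 1 blood array. The summed signal of the 4 red cell markers was lower in infiltrating cells, at 57390 to 149800 and 203900 to 397400 units. The fraction thus carried transcripts of hepatoma, leukocytes and fibroblasts, and which of its cells carried the 7 factors was not tested. In bulk RNA, more cells of a type and more RNA per cell cannot be told apart.

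On their brightest probes all 7 factors were well above background in Cy5 on all 8 infiltrating arrays, and 6 of 7 were so on no blood array. Among all 12298 tested genes, 20.4% had that pattern. Cebpa was the exception, with 5 of 8 blood arrays well above background. The ratio to untreated blood, after normexp background correction and loess, was called higher at a limma adjusted p under 0.05 with at least a 2-fold change. By that rule 1 of 7 factors, Foxa2, was higher in infiltrating cells than in untreated blood, where 9.33% of all genes were higher and 10.1% lower. Against tumour-bearing blood it was again Foxa2 alone, where 12.1% of genes were higher and 11.8% lower. In tumour-bearing blood none of the 7 was called against untreated blood, where 0.748% of genes were called in either direction. The signals chose these genes, so nothing is read from these counts. Whether the groups overlapped is given below gene by gene. The share of all genes without overlap was not counted, so nothing is read from that either.

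**Figure D1:**
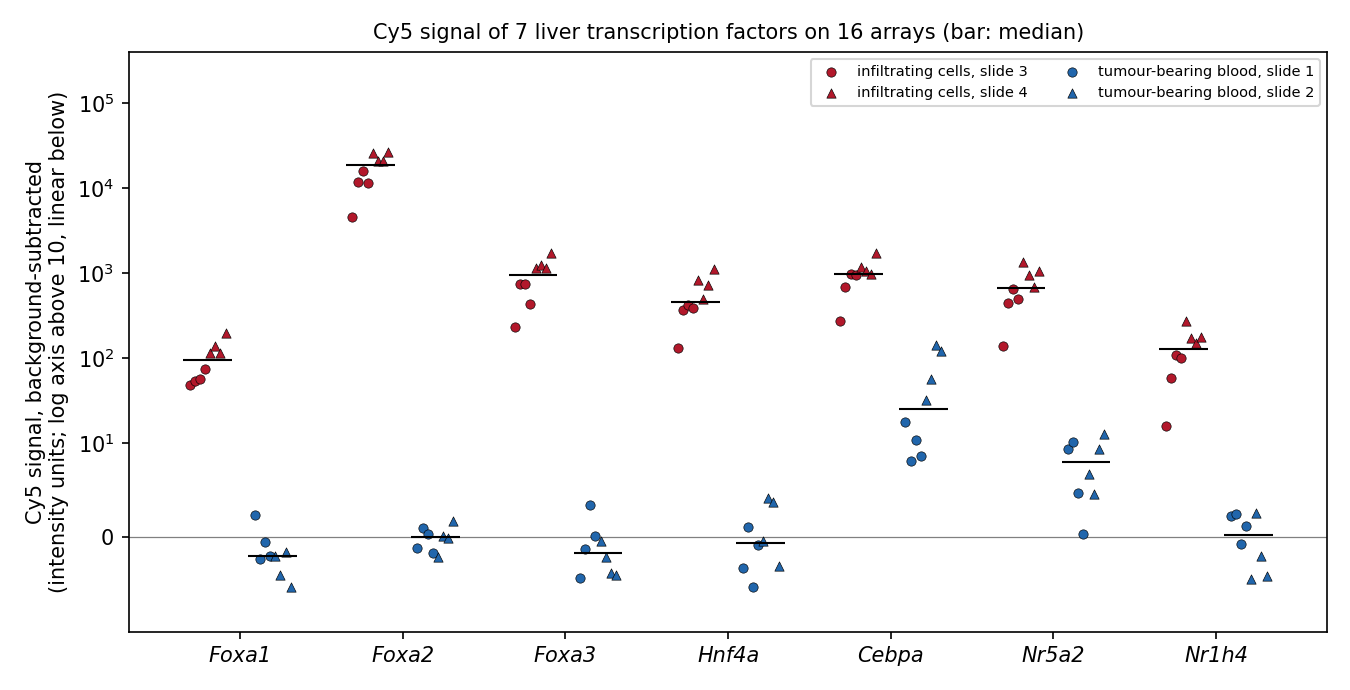
Background-subtracted Cy5 signal (log axis above 10 units, linear below) of each factor's brightest probe in infiltrating cells (red) and tumour-bearing blood (blue), 8 arrays each, with the median as a bar. All infiltrating points lie above all blood points of the same gene. For Cebpa the lowest infiltrating value is 274 units and the highest blood value 141. Infiltrating arrays were brighter, with a 75th percentile of Cy5 of 236 to 1129 units against 17.0 to 37.4 in blood, and the share of all genes separated in this way was not counted.

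Among the FOXA genes, Foxa2 was the 1 past the call. Its Cy5 signal, the mean of up to 10 spots per array, was 4498 units at the lowest, 18280 at the median and 26150 at the highest in infiltrating cells, against -2.03, 0.06 and 1.73 in blood. No blood array came near the lowest infiltrating one. The log2 ratio was 3.79 ± 0.65 in infiltrating cells and 0.03 ± 0.03 in blood (SD, n = 8 each), and the groups did not overlap. Since no blood array was well above background, Foxa2 was at least 27.7-fold higher in infiltrating cells than in blood. Such a bound sets the mean infiltrating Cy5 against a ceiling for each blood array. That ceiling is the higher of the gene's own signal and the lowest signal that passes as above background. The bound rests on Cy5 after loess and scaling between arrays, holds for that normalization only, and is open to dye bias. It leaves out the Cy3 channel. For each factor given a bound, the log2 ratios showed a smaller difference between the groups, 3.755 for Foxa2. The SD between the spots of an array was 0.10 to 0.42 on infiltrating arrays, and the SD between arrays was 0.65.

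Foxa3, which acts with Foxa1 and Foxa2 on shared liver targets, had Cy5 signals of 233, 947 and 1726 units (lowest, median, highest) in infiltrating cells and of -4.32, -1.67 and 3.40 in blood. Its log2 ratio was 0.95 ± 0.44 in infiltrating cells and 0.07 ± 0.10 in blood, with groups that did not overlap. By the same bound in Cy5 it was at least 2.64-fold higher in infiltrating cells than in blood. By log2 ratio the groups differed by 0.88, which was not called. Foxa1, an early endoderm factor, had 48.2, 93.5 and 193 units in infiltrating cells and -5.28, -1.96 and 2.40 in blood. The Foxa1 log2 ratio was 0.26 ± 0.25 in infiltrating cells and 0.01 ± 0.11 in blood, and here the groups overlapped, since infiltrating samples 891, 897 and 898 lay within the blood range, with 891 at -0.13. With arrays centred on spike-in controls its mean ratio was -0.16, and infiltrating minus blood was -0.25, so its direction against either blood depends on the scaling and no fold is given.

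Hnf4a was read by 3 probes that gave different pictures. The brightest, A_52_P683991, had Cy5 signals of 129, 454 and 1120 units in infiltrating cells and of -5.20, -0.58 and 4.16 in blood. All 8 infiltrating arrays were thus above all 8 blood arrays in signal. Its log2 ratio was 0.74 ± 0.33 in infiltrating cells and 0.14 ± 0.10 in blood. Sample 897, at 0.16, was the only infiltrating sample inside the blood range, whose highest value was 0.35, and 898 stood just above it at 0.38. The bound in Cy5 against blood was at least 2.01-fold, while by log2 ratio the groups differed by 0.60, which was not called. Probe A_51_P198473 went the other way, with ratios of -0.19 ± 0.11 in infiltrating cells and 0.18 ± 0.08 in blood, and all infiltrating samples below all blood samples. That probe was dim, at 2.92 to 26.9 units in infiltrating cells and 12.8 to 38.5 in blood, and well above background on 5 of 8 arrays of each group. The third, A_52_P69656, was well above background on 3 infiltrating arrays and no blood array, and was not tested. All 3 carry the same RefSeq accession. The mean over tested probes gave a log2 ratio of 0.28.

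On the brightest probe of each gene, Cebpa was the only one of the 7 well above background on any blood array. Its brighter probe, A_52_P168567, had Cy5 signals of 274, 972 and 1710 units in infiltrating cells and of 8.10, 25.0 and 141 in blood. Signals did not overlap, but ratios did: the log2 ratio was 0.69 ± 0.32 in infiltrating cells and 0.62 ± 0.72 in blood. Blood samples split by slide. Slide 2 (samples 894, 896, 897 and 898) had ratios of 0.67, 0.74, 1.72 and 1.65, with a mean of 1.20, and slide 1 (889, 890, 891 and 893) had 0.18, 0.02, -0.02 and -0.03, with a mean of 0.04. In infiltrating cells the means were 0.50 on slide 4 and 0.87 on slide 3. The second probe, A_51_P214087, was well above background on no blood array, and its mean ratio there was not higher on slide 2. In infiltrating cells it was above background on 7 arrays, with a ratio of 0.09 ± 0.09.

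The slide split of Cebpa in blood was shared with few genes. Its mean ratio was 1.16 higher on slide 2 than on slide 1, and 20 of 12298 genes (0.163%) were higher on slide 2 by at least 1 on the log2 scale while 0 were lower by as much. The 15 genes with a larger gap included the olfactory receptor Olfr633 (1.97), the pluripotency factor Pou5f1 (1.83), the muscle glycogen protein Ppp1r3a (1.79), the retinoic acid binding protein Crabp1 (1.77), the neuronal kinase Camk2a (1.72) and the serotonin receptor Htr1f (1.72). These 6 have the largest gaps and were picked after their values were seen. Each slide 2 sample was above every slide 1 sample for all of these 6, as it was for Cebpa. Sample and slide move together here, and their part in the Cebpa ratio in blood was not tested.

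**Figure D2:**
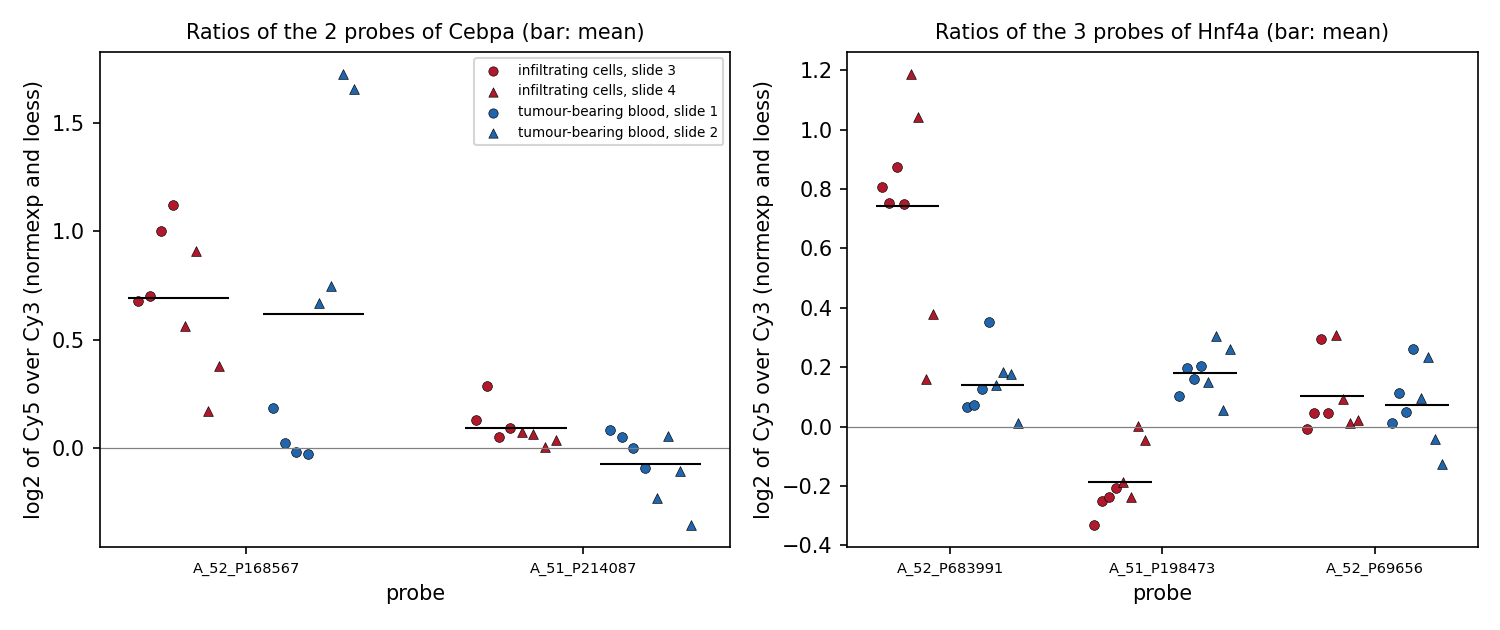
Log2 ratio to untreated blood of each probe of Cebpa (left) and of Hnf4a (right), infiltrating cells in red beside tumour-bearing blood in blue, circles for slides 3 and 1, triangles for slides 4 and 2, bars for means of 8. The 4 slide 2 blood samples of the brighter Cebpa probe lie between 0.67 and 1.72, above all slide 1 blood samples, and the Hnf4a probes A_52_P683991 and A_51_P198473 differ in direction.

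Both remaining nuclear receptors were found on infiltrating arrays. Nr5a2 had Cy5 signals of 139, 665 and 1331 units in infiltrating cells and of 0.35, 8.01 and 12.9 in blood. Its log2 ratio was 0.88 ± 0.46 in infiltrating cells and 0.00 ± 0.07 in blood, with no overlap between the groups. Its bound in Cy5 against blood was at least 2.05-fold, while by log2 ratio the groups differed by 0.88, which was not called. Nr1h4 had 16, 128 and 269 units in infiltrating cells and -4.39, 0.24 and 2.61 in blood. The Nr1h4 log2 ratio was 0.28 ± 0.17 in infiltrating cells and 0.01 ± 0.10 in blood, and samples 897 and 898, at 0.03 and 0.04, lay within the blood range. With spike-in centring its mean ratio was -0.01 and infiltrating minus blood was -0.12, so its direction too depends on the scaling. The untreated blood channel was well above background for Nr1h4 on 0 of 16 arrays.

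The channel of untreated blood was not the same for these genes on both sets of arrays, although it held the same kind of RNA. Foxa2 had Cy3 signals of 36 to 90.7 units on infiltrating arrays, well above background on 8 of 8, and of -2.29 to -0.08 on blood arrays, on 0 of 8. Foxa3 was above background in Cy3 on 7 infiltrating arrays, Nr5a2 on 6 and Hnf4a on 3, against 0, 3 and 0 blood arrays. Of all tested genes, 443 (3.60%) were above background in Cy3 on every infiltrating array and on no blood array, and 11 (0.0894%) the reverse. Albumin, a bright hepatoma transcript, read 4905 to 12680 units of Cy3 on infiltrating arrays and 1.55 to 7.07 on blood arrays. The 75th percentile of Cy3 was 70.1 to 86.7 units on infiltrating arrays and 38.8 to 50.9 on blood arrays. A higher Cy3 signal lowers the ratio, and what raised it was not tested.

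How many of the factors passed the call depended on the treatment of background and scale. Ratios deposited by the authors, converted to log2, put all 7 past the call against untreated blood, with means of 5.12 (Foxa2), 2.93 (Hnf4a), 2.76 (Foxa1), 2.68 (Foxa3), 2.60 (Nr5a2), 1.94 (Nr1h4) and 1.41 (Cebpa). Plain background subtraction with a floor of 1 unit put 6 past it, and centring on each array's median or on spike-in controls 5 each. Of all tested genes, 25.8% were called higher with the deposited ratios, 15.7% with the floor, 55.7% with arrays centred on their medians and 37.7% with spike-in centring. The last 2 scalings put the median log2 ratio of all tested genes at 1.20 and 0.57, against 0.05 after loess, and the share of calls that were higher at 94.4% and 80.6%, against 48.0% after loess. Relative to the median of all genes, Foxa2 stood 3.74 above after loess and 4.63 above under either centring. Foxa3 stood 0.91 and 1.05 above, Nr5a2 0.84 and 0.83, Cebpa 0.64 and 0.89, and Hnf4a 0.70 and 0.57. Foxa1 and Nr1h4 stood 0.22 and 0.23 above after loess but at -0.73 and -0.58 under the centrings, that is, below the median gene. Only Foxa2 was past the call under every processing tried. Without sample 897 or without 898, Foxa3 passed as well, making 2 of 7, where 10.2% and 9.73% of all genes were called higher. On the first slide alone Nr5a2 passed beside Foxa2, with 10.7% of all genes.

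**Figure D3:**
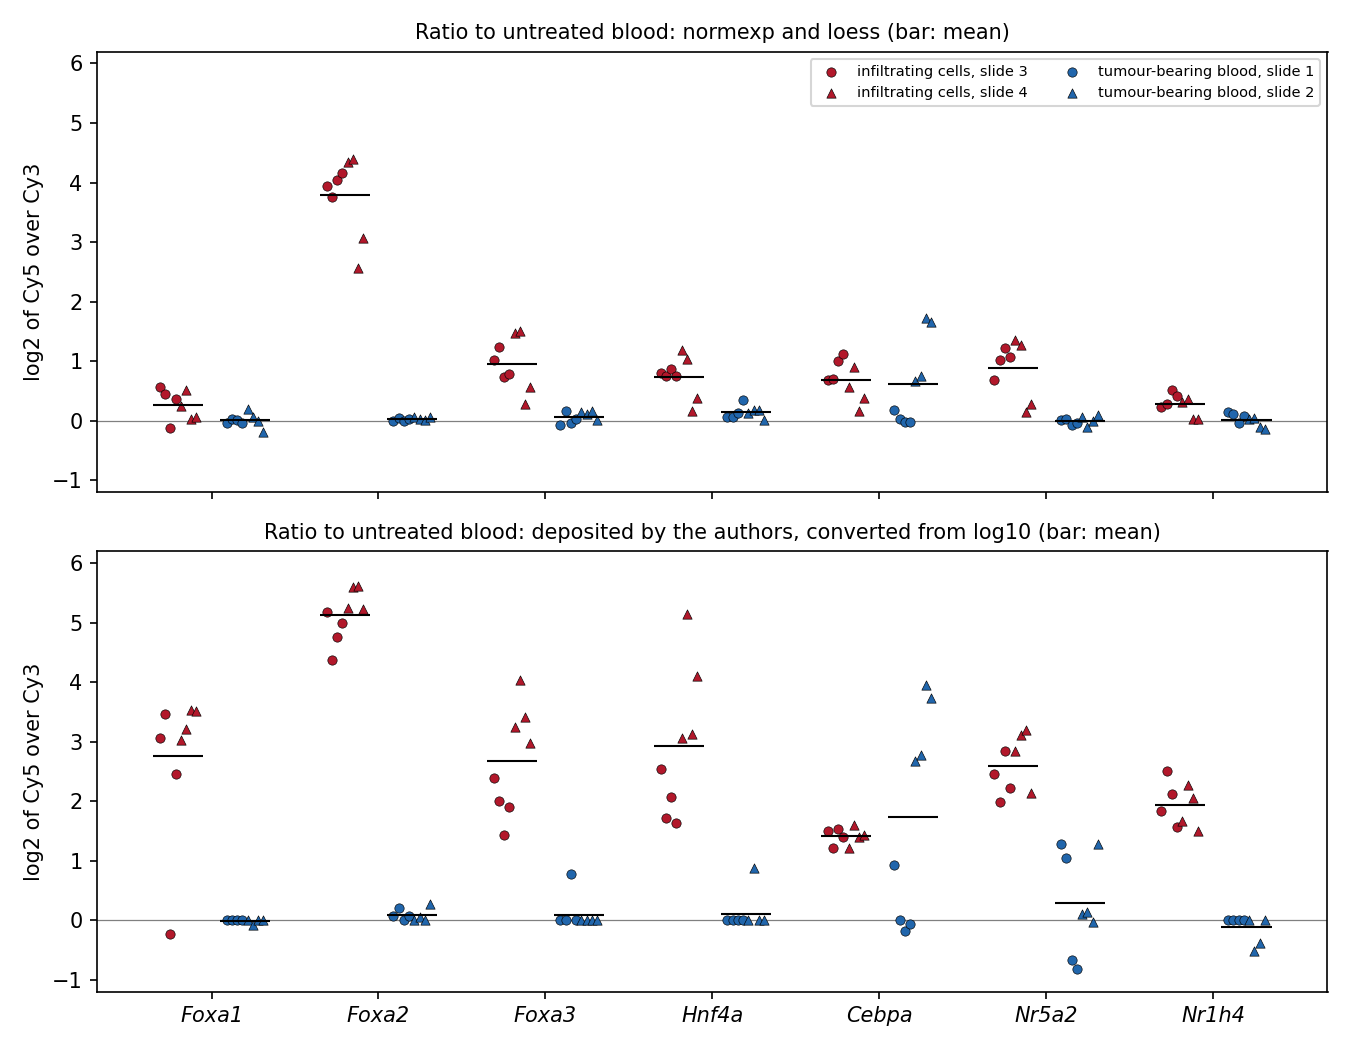
Log2 of Cy5 over Cy3 for each factor in infiltrating cells (red) and tumour-bearing blood (blue), after normexp and loess (top) and as deposited by the authors (bottom), 8 arrays each, bars for means. After loess only Foxa2 lies far from 0, at 3.79, while the deposited ratios put all 7 infiltrating means at 1.41 or above, with 1 Foxa1 sample at -0.23.

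Within infiltrating cells, samples 897 and 898 had the lowest ratios for Foxa2, at 2.56 and 3.07, while the other 6 samples lay between 3.76 and 4.39. They were also the 2 lowest for Foxa3, Hnf4a, Cebpa, Nr5a2 and Nr1h4; for Foxa1 sample 891 was lower still. Their Cy5 signals were not low, at 20700 and 26150 units for Foxa2. Cy5 signals followed the brightness of the array: the 75th percentile differed 4.79-fold between infiltrating arrays and Foxa2 5.81-fold. Divided by the array's 75th percentile of Cy5, Foxa2 was 25.4 ± 3.53 (SD, n = 8), a coefficient of variation of 13.9% with a highest over lowest of 1.54. On that scale samples 897 and 898 read 28.9 and 23.2, both inside the range of the other 6 samples, 19.1 to 29.4. The coefficient of variation was 18.1% for Cebpa, 20.3% for Hnf4a, 21.7% for Foxa3, 26.1% for Foxa1, 26.7% for Nr5a2 and 39.4% for Nr1h4. Scaled in this way, Cebpa read 1.16 to 2.05 in infiltrating cells and 0.34 to 4.97 in blood, so that the groups overlapped, with 897 and 898 of blood above every infiltrating sample. Nr1h4 overlapped too on that scale, at 0.07 to 0.30 in infiltrating cells and -0.26 to 0.11 in blood. The low ratios of samples 897 and 898 thus were not seen in the scaled Cy5 signal. In the deposited ratios Foxa2 read 5.62 and 5.23 in these samples, where all 8 ran from 4.375 to 5.62. There, neither sample was the lowest for Foxa3, Hnf4a, Cebpa or Nr5a2, while 898 was the lowest for Nr1h4, at 1.51. The cause was not tested.

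**Figure D4:**
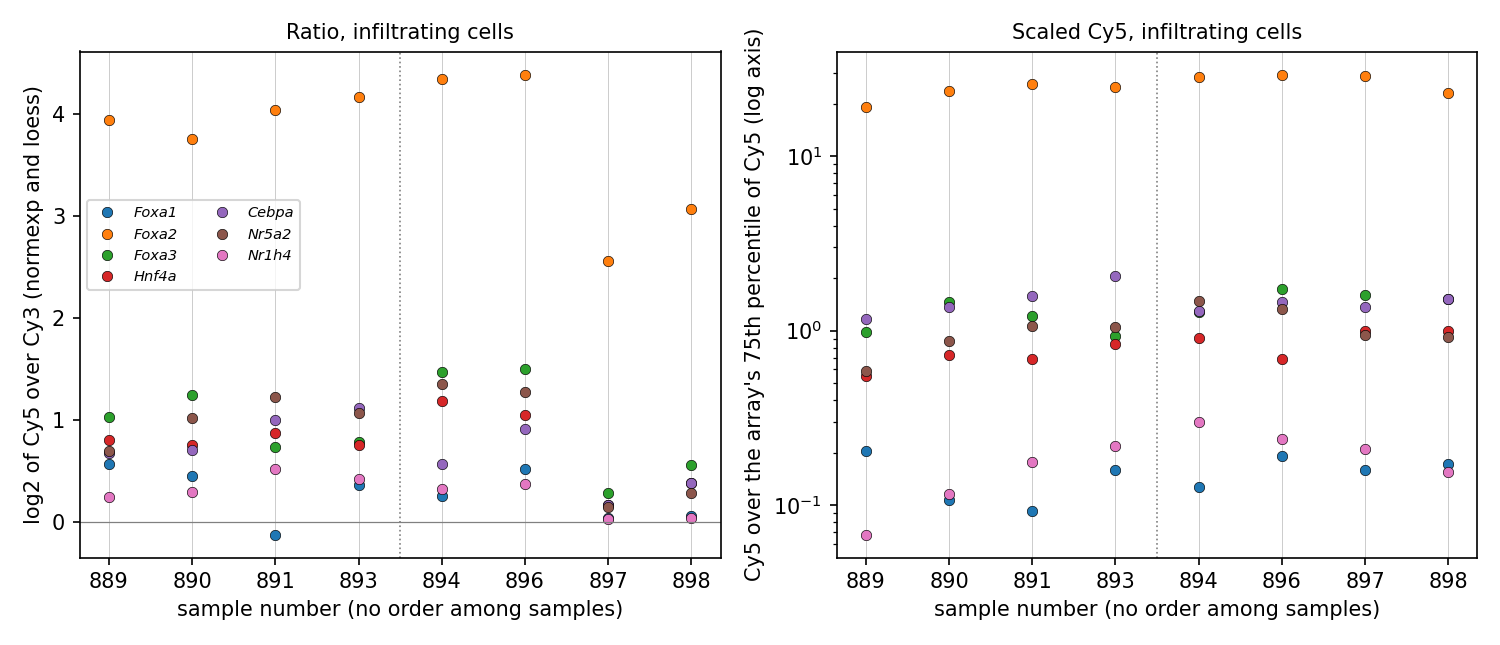
For the 8 infiltrating samples, the log2 ratio of each factor (left) and its Cy5 signal over the array's 75th percentile of Cy5 (right, log axis), with a dotted line between slides 3 and 4. Samples 897 and 898 are low on the left for nearly all factors, with Foxa2 at 2.56 and 3.07, and not set apart on the right, where Foxa2 reads 28.9 and 23.2.

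Variation between infiltrating samples was compared with that of Afp, the hepatoma transcript, and Ptprc, the leukocyte phosphatase CD45, in 14 relations of log2 ratios over 8 samples. With Afp, Pearson's r was between -0.19 and 0.30 (exact permutation p between 0.466 and 0.969, two-sided) and Spearman's rho between -0.21 and 0.36 (exact p between 0.389 and 0.840). With Ptprc, r was between -0.03 and 0.24 (exact p between 0.570 and 0.948) and rho between -0.17 and 0.31 (exact p between 0.462 and 0.935). No relation passed Benjamini-Hochberg adjustment over the 14, the lowest adjusted p being 0.969 for r and 0.935 for rho. Without the 2 samples farthest from the median of Afp, r lay between -0.26 and 0.35; without the 2 farthest for Ptprc, it lay between -0.62 and -0.11, so the sign for 6 of 7 factors turned. On log2 of Cy5 over the array's 75th percentile, a scale added after seeing the data that gives both genes of a pair the same divisor, r lay between 0.07 and 0.80 with Afp and between -0.92 and 0.15 with Ptprc. There Foxa2 had r of 0.80 with Afp (exact p = 0.0199, adjusted p = 0.0819) and of -0.86 with Ptprc (exact p = 0.0103, adjusted p = 0.0721). The lowest adjusted p for r was 0.05, at the threshold itself, for Nr1h4 with Ptprc. That relation had r of -0.92 (exact p = 0.00357), rho of -0.74 (exact p = 0.0458, adjusted p = 0.269), and r of -0.79 without the 2 farthest samples. Each slide held 4 of these samples, too few for a value within a slide.

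Genes with the most similar ratios were sought over all 16 arrays among 10352 genes well above background on all infiltrating arrays, by the root mean square difference of log2 ratios. Foxa2 was closest to C4bp, which encodes a liver-made complement regulator (0.21), and to Palmd (0.26). Foxa3 was closest to Ehbp1 (0.15) and to Hpx, the hepatocyte haem scavenger hemopexin (0.15). Hnf4a lay closest to Kif23, a mitotic kinesin (0.12), and Parp12 (0.13). Ska1, which encodes a spindle protein, was among the 2 genes nearest to Nr5a2 (0.12). Nr1h4 lay closest to Glrp1 and Ccdc14 (0.09 each), Foxa1 to Fbxo45 (0.10) and Bbs7 (0.12). Cebpa had no close match, with Selenom at 0.32 and Dpy19l3 at 0.34. Dpy19l3 is among the genes with the slide gap in blood. For factors with ratios near 0, many genes have similar ratios and the nearest ones carry little information.

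Among 28 other liver transcription factors, 25 were tested, and 5 were called higher and 3 lower in infiltrating cells than in untreated blood, with a median log2 ratio of 0.20 against 0.05 for all genes. Of all tested genes, 9.33% were called higher and 10.1% lower, and the counts of this and the later lists stand beside these shares. Each called gene named from this and the other lists had the same sign on 8 of 8 arrays. Tbx3, a T-box factor of the liver bud, rose by 3.03 ± 0.13 (SE; limma adjusted p = 2.74e-08), and its Cy5 signal was 5348 to 30180 units in infiltrating cells against 3.15 to 36.3 in tumour-bearing blood. Nr2f2 (COUP-TFII) rose by 2.56 ± 0.25 (adjusted p = 1.06e-05) and its relative Nr2f6 by 1.96 ± 0.11 (adjusted p = 1.92e-07). Creb3l3, a liver and intestine factor of the fasting response, fell by 1.99 ± 0.39 (adjusted p = 0.00127), and its ratio differed widely between infiltrating samples, between -3.60 and -0.18. That call was lost under both centrings, at -0.35 on array medians and -0.99 on spike-in controls. Onecut1 (HNF6) had a log2 ratio of 0.32 (adjusted p = 0.0024) and Prox1 one of 0.14 (adjusted p = 0.0393), both short of 2-fold, and Onecut1 read 80.2 to 507 units in infiltrating cells. Nr0b2 (SHP), a target of FXR that represses Nr5a2, was well above background on 0 of 8 infiltrating arrays, as were 2 others of the 28. The share of all genes above background on none of these arrays was not counted. Nothing is read from such counts, here or for the lists below.

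Of 32 hepatocyte target genes, 30 were on the array and 23 tested; 9 were called higher, 2 lower and 12 neither, with a median of 0.37. Afp rose by 2.95 ± 0.09 (adjusted p = 2.07e-09), with 67320 to 341100 units in infiltrating cells and 30.8 to 73.7 in blood. Igfbp1 rose by 2.0 ± 0.10 (adjusted p = 5.92e-08), the retinol carrier Rbp4 by 1.72 ± 0.09 (adjusted p = 8.68e-08) and transferrin (Trf) by 1.70 ± 0.07 (adjusted p = 1.37e-08). Albumin (Alb) rose by 1.12 ± 0.11 (adjusted p = 8.87e-06), with 42230 to 272000 units in infiltrating cells and -5.40 to 4.98 in blood. Of the 30, 4 were well above background on no infiltrating array, and Ttr, the abundant liver carrier transthyretin, on 1 of 8. Summed hepatoma markers moved with the groups, as given above, and their part in these counts was not tested.

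Bile acid and sterol genes, many of them targets of FXR and LRH-1, made up a further list. On infiltrating arrays 51.05% to 65.77% of all probes were well above background in Cy5, and nothing is read from the detection count below. Of 16, 9 were well above background on no infiltrating array, Slc10a1 among them, and 7 were tested, of which 0 were called higher and 2 lower, with a median log2 ratio of 0.01. Abcb4, the canalicular phospholipid transporter, fell by 2.23 ± 0.15 (adjusted p = 6.82e-07), with Cy5 signals of 268 to 1308 units in infiltrating cells and 288 to 647 in blood; with median centring the value was -0.43 and the call was lost. Slc10a1, the bile acid uptake transporter NTCP, was called lower (adjusted p = 0.000174); it was well above background on none of 8 infiltrating arrays, at -6.34 to 3.23 units, and on all 8 blood arrays, at 24.3 to 219.4. The other 5 tested genes were within 2-fold.

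The C/EBP family and myeloid factors held 12 genes, of which 11 were tested; 4 were called higher and 0 lower, with a median log2 ratio of 0.44. Maf, a macrophage factor, rose by 2.63 ± 0.19 (adjusted p = 1.23e-06), Cebpb by 1.98 ± 0.09 (adjusted p = 3.23e-08) and Klf4 by 1.74 ± 0.07 (adjusted p = 1.86e-08). Spi1 (PU.1), the myeloid master factor, had a log2 ratio of 0.00 (adjusted p = 0.948) at 21.5 to 94.0 units of Cy5. In tumour-bearing blood Cebpb had a log2 ratio of 0.02 against untreated blood, beside the 0.62 of Cebpa.

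Of 14 coregulators, all tested, 1 was called higher and 2 lower, with a median of -0.04, where 9.33% of all genes were higher and 10.1% lower. Ncoa3 rose by 1.04 ± 0.06 (adjusted p = 3.55e-07), while Ncoa1 fell by 1.33 ± 0.11 (adjusted p = 3.87e-06) and Nrip1 by 1.09 ± 0.10 (adjusted p = 5.78e-06). These 2 falls turned sign with median centring (0.48 and 0.78), and that of Nrip1 with spike-in centring (0.14). The untreated blood channel read 267.5 to 645.8 units for Nrip1 on infiltrating arrays and 74.85 to 87.04 on blood arrays. A higher Cy3 signal lowers the ratio, so this fall is not a fall in Cy5 signal. Of 13 transcription factors of other endoderm organs, 9 were well above background on no infiltrating array and 2 were tested. Sox9, a factor of bile duct and progenitor cells, was the 1 called, and rose by 2.27 ± 0.16 (adjusted p = 1.06e-06). In tumour-bearing blood, 2 genes of the 6 lists were called against untreated blood, both lower.

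**Figure D5:**
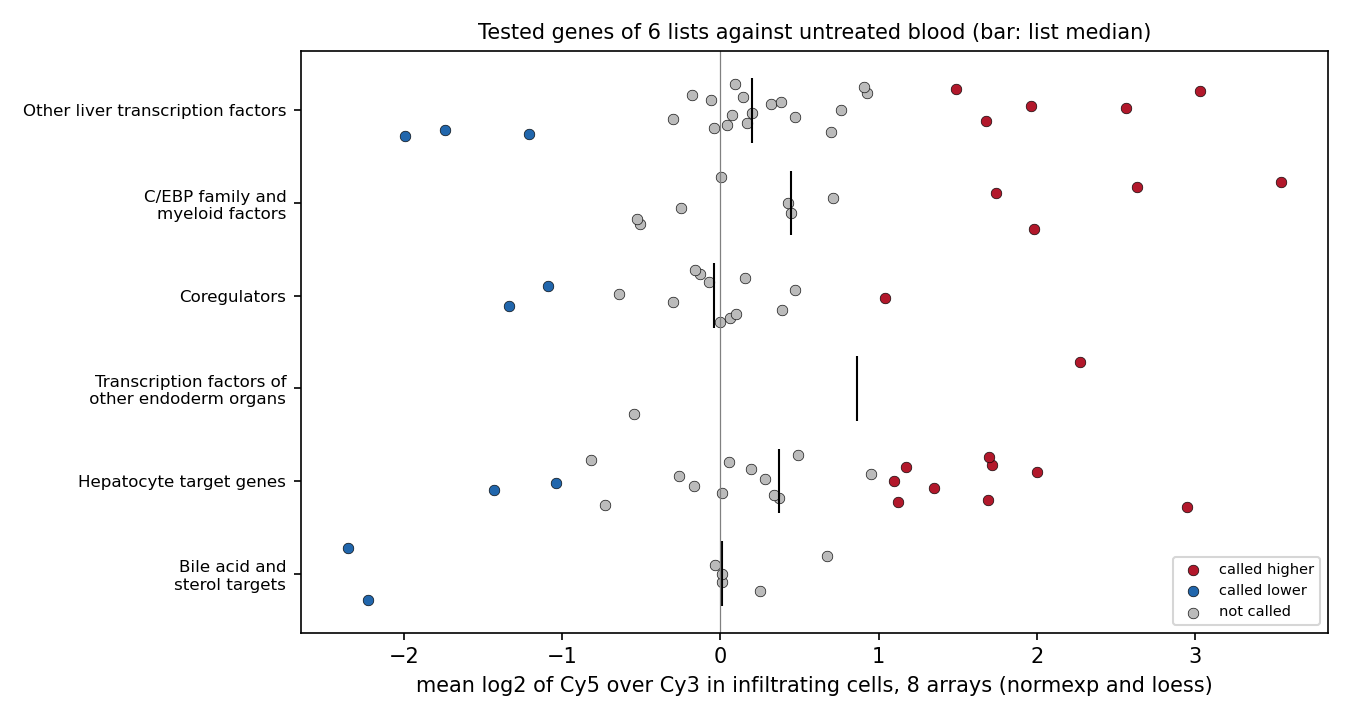
Mean log2 ratio to untreated blood in infiltrating cells (8 arrays) of every tested gene of 6 lists, in red where called higher, blue where called lower and grey where not called, with the list median as a bar. Other liver transcription factors and hepatocyte target genes reach 3.03 and 2.95, and the 2 called bile acid genes lie below -2.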

How the data were processed

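RNA of 8 infiltrating cell fractions and 8 blood samples was compared with untreated blood RNA on 16 Agilent arrays. Per the file headers, the deposited intensities are the scanner's median spot signals in Cy5 and Cy3, extracted with version 10.5.1.1 of Agilent's Feature Extraction program. Version 9.1.3.1 is named in the submitters' processing notes. Per the file headers, the deposited log10 ratios of Cy5 over Cy3 are that program's own dye-normalized values; the series' value table held the same values (largest difference 0). The authors' deposited files also flag spots as well above background, and 0 spots were saturated.

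From these, log2 ratios were computed with limma 3.58.1 in R 4.3.3: normexp with an offset of 50, loess within arrays with control spots at weight 0, 87 to 153 outlier spots per array left out, spots of a probe averaged. Probes were tested if well above background on at least 4 of 8 Cy5 arrays of a group or 8 of 16 Cy3 arrays, 26494 of 41174. Through RefSeq accessions 23374 probes were named and 17800 were not; a gene is its probe of highest mean log2 intensity. A call needs at least a 2-fold change and a p under 0.05 after Benjamini-Hochberg adjustment across every tested probe. The step was tested on simulated data. The number of arrays limits the precision.

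By rule the text names the 7 factors, the 4 largest called members of each list, 9 fixed genes and the 2 nearest genes of each factor; a few of these, and 1 promoter motif searched, are not reported here. The members and lists were chosen with earlier results of these data known. Sample numbers were not used as pairs in the main calls, since the labels do not say that a number marks 1 mouse. Deviations of same-numbered samples correlated at -0.17 to 0.20, above 0.1 for 4 of 8, and the own number was the best match for 2 of 8. Tissue, slide and kit differ between the groups as well, so these correlations cannot decide whether a number marks 1 mouse. Alternatives in background, scaling, filter, probe, slide and left-out samples were run.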

Additional observations from a re-analysis of the deposited data

Results flagged for a closer look

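Ratios to untreated blood differed between infiltrating cells and tumour-bearing blood, by limma's test of that difference, for 18 genes named above. On the log2 scale, infiltrating minus blood was positive for Afp (3.19), Tbx3 (2.82), Klf4 (2.75), Maf (2.66), Nr2f2 (2.48), Sox9 (2.18), Nr2f6 (2.08), Igfbp1 (1.97), Cebpb (1.97), Rbp4 (1.80), Trf (1.57), Ncoa3 (1.24) and Alb (1.13). It was negative for Slc10a1 (-2.70), Abcb4 (-2.62), Creb3l3 (-2.09), Ncoa1 (-1.35) and Nrip1 (-1.21). For Nrip1 the Cy3 signal was higher on infiltrating arrays, as given above. Apart from Alb, these genes were named for being among the largest called ratios of their lists on the same infiltrating arrays. Their differences were therefore partly fixed by that choice and are a description. Of all tested genes, 12.1% were called higher and 11.8% lower in infiltrating cells than in blood. Group, slide and RNA kit cannot be told apart in these differences.

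Infiltrating sample 897 stood apart for Nrip1, with a log2 ratio of -0.44 where the lowest sample was at -1.49. Chance alone sets a sample apart in this way in about 1 of 20 groups, and whether it did so here was not tested. Sample 897 also had the lowest infiltrating ratio for Foxa2, as given above.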

How the results depend on the processing

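Genes called in infiltrating cells against untreated blood numbered 2392; the count was 4368 with background subtracted and floored, 7260 with median centring, 5755 with spike-in centring, 5759 with the deposited ratios and 9395 with adjusted p alone. For blood against untreated blood (92) it was 53 without background correction, 403 floored, 894 median-centred, 835 spike-centred, 956 deposited, 61 on the first slide and 152 on the second. For infiltrating cells against blood (2935) it was 5309 floored, 7711 median-centred, 6768 spike-centred, 7006 deposited and 9212 with adjusted p alone. In the order floored, median-centred, spike-centred and deposited, log2 ratios in infiltrating cells were 4.71, 5.84, 5.20 and 5.12 for Foxa2, 1.85, 2.26, 1.62 and 2.68 for Foxa3, 1.80, 1.78, 1.14 and 2.93 for Hnf4a (0.28 over its probes), 1.04, 2.09, 1.46 and 1.41 for Cebpa, 1.79, 2.04, 1.40 and 2.60 for Nr5a2, and 0.99, 0.63, -0.0089 and 1.94 for Nr1h4. Foxa1 was at 1.13 floored, -0.16 spike-centred and 2.76 deposited. Under median and spike-in centring, 7260 and 5755 of all 12298 tested genes were called, as given above. List members called were then 14 and 13 of 25 other liver factors (15 deposited). They were 10 and 7 of 11 C/EBP and myeloid factors, and 10 and 6 of 14 coregulators. Other endoderm factors had 2 floored, spike-centred and deposited, hepatocyte targets 20 deposited, and bile acid genes 1 on the second slide. Ncoa1 reversed with median centring (0.48) and Nrip1 with median (0.78) and spike-in centring (0.14). Relations with Afp or Ptprc at an adjusted p under 0.05 numbered 0. They were 2 without background correction, 1 deposited and 10 for log2 Cy5. Unscaled Cy5 signals of an array share its brightness, whose 75th percentile differed 4.79-fold between infiltrating arrays, so nothing is read from the 10. For Cy5 over the 75th percentile, a scale chosen after seeing the data, 1 was counted, with an adjusted p of 0.05, the threshold itself. The cause of these shifts was not tested. With the sample number as a replicate block, 2935 genes were called, as without it.

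Leaving out each sample gave 3.70 to 3.96 for Foxa2, 0.87 to 1.05 for Foxa3, 0.22 to 0.32 for Foxa1, 0.68 to 0.83 for Hnf4a, 0.63 to 0.76 for Cebpa, 0.82 to 0.99 for Nr5a2 and 0.24 to 0.31 for Nr1h4. The Cebpa difference between infiltrating cells and blood, 0.07, ran from -0.08 to 0.30; it was -0.19 floored, 1.63 median-centred, 0.97 spike-centred and -0.31 deposited. Signals near background limit Nr1h4, Foxa1 and the dim Hnf4a and Cebpa probes.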
